A study of Saccharomyces cerevisiae with 32 samples.

Results

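The genes described here are 46 budding yeast (Saccharomyces cerevisiae) genes of DNA replication, taken by name. They encode the subunits of the 3 replicative DNA polymerases and primase, the sliding clamp and its loaders, the single-strand binding protein RPA and the enzymes that finish Okazaki fragments. With them are the origin firing factors, the fork protection complex, the origin recognition complex, thymidylate synthase and topoisomerase II. The genes of the MCM helicase were left out of the list. All 46 were on the array, among 6205 genes tested, with 1 probe each. All 46 were well above background in both channels on all 32 arrays and none was saturated on any array. All therefore passed the filter on dim probes.

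The study followed messenger RNA through the cell cycle on two-color arrays in 2 strains. The 4P strain (YBL289) carried tagged phosphomutant alleles of 4 regulator genes: hcm1-15A-3HA, of a forkhead activator of genes expressed in S phase, tos4-9A-3FLAG, of a forkhead-associated domain protein, and yox1-9A-3V5 together with yhp1-13A-13MYC, of a pair of homeodomain repressors. Its control, WT (YBL320), carried the unmutated genes with the same epitope tags, HCM1-3HA and TOS4-3FLAG beside the repressor genes YOX1-3V5 and YHP1-13MYC. Cells of both strains were held in G1 phase for 2 hours with alpha-factor, the mating pheromone, then released, and RNA was taken at 8 times, every 15 min between 0 and 105 min. Each sample was hybridised against RNA of an untagged strain (MW836a; HCM1 TOS4 YOX1 YHP1) growing asynchronously in mid-log phase. Each time course was run in duplicate with the dyes swapped, which gave 2 arrays for each of 16 combinations of strain and time. The tags are therefore common to 4P and WT and absent from the common reference, and each genotype is 1 strain.

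Replication begins when origins, marked by the origin recognition complex and loaded with the MCM helicase in G1 phase, are activated by a cyclin-dependent kinase and by the Cdc7-Dbf4 kinase. At each fork the helicase, with Cdc45 and the GINS complex, unwinds DNA. Polymerase alpha with primase starts each strand, polymerases epsilon and delta extend the leading and lagging strands, and the clamp PCNA holds them on DNA. Many of the genes for these proteins are classic targets of MBF, a transcription factor active at the transition between G1 and S phase that binds a DNA element known as the MluI cell cycle box.

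Values are log2 ratios of the sample over the asynchronous reference, after background correction and normalization within each array, so 0 is the level in a culture of mixed stages. A level says nothing of how one gene compares with another, and a lower level cannot be told apart from fewer cells at the stage that expresses the gene. The scanner found 94.8% to 99.6% of the spots of an array clear of background. Most outlier spots, up to 1761 on an array, were on the replicate 1 arrays of 4P at 15 and 105 min, which had a slide to themselves. The correlation of the 2 arrays of a group over all genes lay between 0.586 and 0.918. Replicate 1 differed from replicate 2 in dye and time course. Apart from 1 slide with arrays of both genotypes, each slide held 1 genotype, so slide and genotype can rarely be told apart. Nothing in the labels says that the duplicates came from separate cultures. The p-values treat arrays as separate samples and measure only the spread between them. Markers of mating type a and of pheromone response were high in the arrested cells: at 0 min the a-factor gene MFA1 averaged 2.78 in 4P and 2.59 in WT. The pheromone-induced FUS1 averaged 3.54 in 4P and 3.64 in WT at 0 min and -1.06 in 4P and -1.05 in WT at 15 min. The G1/S cyclin CLB6 was highest at 15 min (3.99 in 4P, 3.80 in WT) and again at 75 min (2.90 in 4P, 2.65 in WT). The histone gene HTB1 was highest at 30 min (1.91 in 4P, 1.60 in WT) and 90 min (1.48 in 4P, 1.16 in WT). The pheromone receptor of the opposite mating type, STE3, averaged between -0.27 and 0.17 in 4P and between 0.30 and 1.01 in WT, and its part in any result was not tested.

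Most transcripts of the replication fork rose and fell as 2 waves in both strains, whereas 2 of the 6 genes of the origin recognition complex changed in each strain. Over the course, 36 of the 46 genes changed in 4P (78.3%, against 40.4% of all genes) and 35 in WT (76.1%, against 35.6% of all genes), by limma's moderated F test at an adjusted p below 0.05 (Benjamini-Hochberg over the 6205 genes). Of these, 30 changed in both strains, 65.2% against 28.4% of all genes. The 5 genes that passed in neither strain were DPB4, SLD3, ORC2, ORC3 and ORC6. With the replicate number as a block 37 genes changed in 4P (55% of all genes), now with DPB4, and 39 in WT (50.2% of all genes), now with PRI1, DBF4, PSF2 and ORC3. RFA1, POL12, POL30 and PRI2, genes of RPA, polymerase alpha, the clamp and primase, had the smallest adjusted p. By limma these were 4.61e-11, 8.27e-11, 6.67e-11 and 8.46e-10 in 4P. In WT they were 1.63e-11, 2.05e-11, 1.27e-10 and 3.08e-10.

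**Figure D1:**
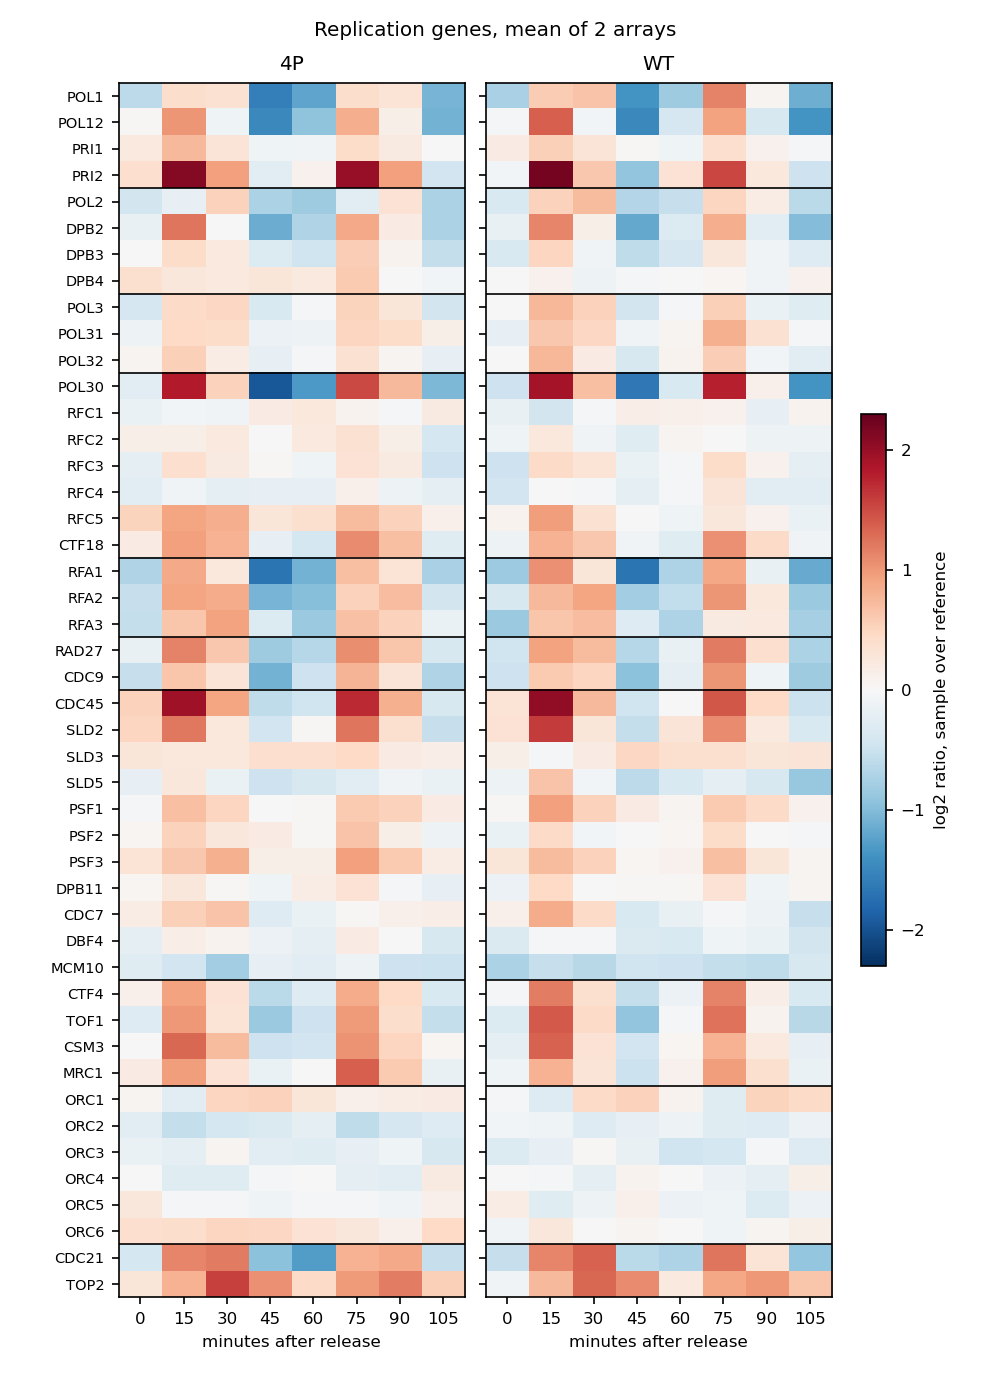
Mean log2 ratio of sample over asynchronous reference (colour; 2 arrays per cell) of the 46 replication genes, 4P on the left and WT on the right, against minutes after release; lines part the role groups in the order polymerase alpha and primase, polymerase epsilon, polymerase delta, clamp and loaders, single-strand binding, flap removal and ligation, origin firing, fork protection, origin recognition, and CDC21 with TOP2. Most fork genes are red at 15 and 75 min and blue at 45 min in both strains, and the means of the origin recognition genes lie between -0.59 and 0.53.

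The first wave came within 15 min of release. Between 0 and 15 min, 23 genes rose in 4P (8.7% of all genes rose) and 31 in WT (9.15% of all genes rose), 21 of them in both. ORC5 fell in WT (8.07% of all genes fell). Between 15 and 45 min, 28 genes fell in 4P (15.5% of all genes fell) and 32 in WT (17.7%). The second wave followed, with 26 genes higher at 75 than at 45 min in 4P (14% of all genes) and 25 in WT (8.86%). The median change of the 46 genes was 0.53 in 4P and 0.84 in WT between 0 and 15 min, and -0.74 in 4P and -0.94 in WT between 15 and 45 min. Between 45 and 75 min it was 0.58 in 4P and 0.62 in WT, and the medians over all genes lay between -0.02 and 0.01. The 4P minus WT difference in these changes passed for none of the 46 genes by limma. At an unadjusted p below 0.05 were 1 gene between 0 and 15 min, 3 between 15 and 45 min and 1 between 45 and 75 min. Of all genes 0%, 0.0806% and 0% passed in these intervals. Of the 30 genes that changed in both strains, 22 had their highest mean of the first 4 times at 15 min in 4P and 23 in WT. At 75 min 24 had their highest mean of the last 4 times in 4P and 27 in WT. For 21 of these 30 the highest array of the last 4 times was the 75 min array in all 4 single time courses.

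The rises over the first 15 min ranged widely. RFA1 rose by 1.56 ± 0.16 in 4P and 1.88 ± 0.16 in WT, CDC45 by 1.42 ± 0.21 in 4P and 1.73 ± 0.21 in WT, and CDC21 by 1.54 ± 0.27 in 4P and 1.66 ± 0.27 in WT (limma adjusted p between 8e-09 and 0.000236). POL1 rose by 1.01 ± 0.23 in 4P and 1.34 ± 0.23 in WT, RAD27 by 1.32 ± 0.24 in 4P and 1.38 ± 0.24 in WT, and CDC9 by 1.16 ± 0.21 in 4P and 1.07 ± 0.21 in WT (limma adjusted p between 0.000244 and 0.00408). TOP2 rose by 0.83 ± 0.18 in WT (limma adjusted p = 0.00248), and its difference in 4P, 0.53 ± 0.18, did not pass (0.0526, and 0.0131 with the replicate block). ORC1 did not pass in either strain (-0.30 ± 0.16 in 4P and -0.26 ± 0.16 in WT).

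Of polymerase alpha and primase, which lay down the RNA-DNA primer of every strand, all 4 genes changed over time in 4P and 3 in WT, where the catalytic primase subunit PRI1 missed the threshold (limma adjusted p = 0.0529, and 0.0213 with the replicate block). PRI2, the large primase subunit (YKL045W), read 0.28 and 0.51 on the 4P arrays and -0.23 and 0.10 on the WT arrays at 0 min. At 15 min it read 2.08 and 2.15 in 4P and 2.17 and 2.24 in WT, and at 45 min -0.32 and -0.17 in 4P and -1.21 and -0.61 in WT. The arrays of both strains were thus highest and close together at 15 min, and both WT arrays lay below both 4P arrays at 45 min. The rise over the first 15 min was 1.72 ± 0.20 in 4P and 2.27 ± 0.20 in WT (log2 with SE and n = 2 arrays at each time, limma adjusted p = 1.13e-06 and 1.7e-08). At 75 min PRI2 was back at 2.00 and 2.00 in 4P and at 1.45 and 1.62 in WT.

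POL12, the B subunit of polymerase alpha (YBL035C), had the same timing. It read 1.22 and 0.81 in 4P and 1.39 and 1.35 in WT at 15 min, then -1.56 and -1.42 in 4P and -1.43 and -1.52 in WT at 45 min, so that the strains overlapped at the trough and not at the peak. Its fall between these times was -2.50 ± 0.16 in 4P and -2.85 ± 0.16 in WT (limma adjusted p = 1.62e-10 and 2.52e-11). POL1, the catalytic subunit (YNL102W), held its mean level longer. On the 4P arrays it read 0.59 and 0.22 at 15 min and 0.34 and 0.35 at 30 min, and on the WT arrays 0.83 and 0.35 at 15 min and 0.59 and 0.72 at 30 min. Over this step it fell in replicate 1 and rose in replicate 2, in both strains. By 45 min it was at -1.71 and -1.42 in 4P and -1.52 and -1.21 in WT, lower than on any array of the first 30 min in both strains. POL1 fell by 1.97 ± 0.23 in 4P and by 1.96 ± 0.23 in WT between 15 and 45 min (limma adjusted p = 1.07e-06 and 1.14e-06). It rose by 1.97 ± 0.23 in 4P and 2.51 ± 0.23 in WT between 45 and 75 min (limma adjusted p = 1.51e-06 and 3.9e-08).

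Polymerase epsilon, the leading-strand enzyme, joined subunits whose means first peaked at unlike times, a difference that was not tested. Its essential accessory subunit DPB2 peaked sharply, at 1.64 and 0.84 in 4P and 1.44 and 0.80 in WT at 15 min, and was at -1.10 and -1.19 in 4P and -1.27 and -1.08 in WT at 45 min. The catalytic subunit POL2 read -0.14 and -0.24 in 4P and 0.51 and 0.57 in WT at 15 min, then 0.49 and 0.58 in 4P and 0.63 and 0.84 in WT at 30 min. Both 4P arrays of POL2 thus lay below both WT arrays at 15 min and, by less, at 30 min. The 4P minus WT difference of POL2 passed at neither time by limma, nor did the test of a difference that depends on time. DPB3, a histone-fold subunit, changed in both strains (limma adjusted p = 0.00421 in 4P and 0.0159 in WT), and its partner DPB4 passed in neither (0.244 in 4P, or 0.0365 with the replicate block, and 0.983 in WT). Of polymerase delta, the lagging-strand enzyme, all 3 genes changed in both strains, with differences between 0 and 15 min of 0.50 to 0.82 in 4P, where POL32 missed the threshold (limma adjusted p = 0.0506, and 0.0279 with the replicate block), and of 0.76 to 0.80 in WT.

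The sliding clamp gene POL30 (YBR088C), which encodes PCNA, had the widest range of the 46 genes, 3.77 in 4P and 3.56 in WT between its highest and lowest mean. It read -0.70 and 0.22 in 4P and -0.57 and -0.39 in WT at 0 min and 1.87 and 1.77 in 4P and 2.14 and 1.68 in WT at 15 min. It dropped to -2.14 and -1.77 in 4P and -1.89 and -1.41 in WT at 45 min, and stood at 1.70 and 1.33 in 4P and 1.74 and 1.82 in WT at 75 min. All 4 courses had both peaks, and the strains overlapped at 0, 15 and 45 min. POL30 rose by 2.06 ± 0.24 in 4P and 2.39 ± 0.24 in WT over the first 15 min (limma adjusted p = 1.6e-06 and 1.75e-07). Between 45 and 75 min it rose by 3.47 ± 0.24 in 4P and 3.43 ± 0.24 in WT (6.71e-10 and 1.02e-09).

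The clamp loader genes moved far less. The large subunit RFC1 and the small subunits RFC2 and RFC4 had ranges under 1 in both strains. Each passed the F test in 1 strain, RFC2 in 4P (limma adjusted p = 0.0469) and RFC1 and RFC4 in WT (0.042 and 0.034). With single arrays left out in turn, the call held for 3 of 32 arrays for RFC2, 11 for RFC1 and 27 for RFC4. RFC3 and RFC5 changed in both strains, as did CTF18, the subunit of an alternative loader linked to sister chromatid cohesion. CTF18 had the widest range of the loaders, with a rise between 45 and 75 min of 1.28 ± 0.16 in 4P and 1.13 ± 0.16 in WT (limma adjusted p = 3.85e-06 and 2.11e-05). RFC5 and POL30 are neighbours that converge on one another in the genome annotation. Their log2 ratios over the 32 arrays had a correlation of 0.638, a description of arrays that share time courses. POL2 and ORC5, the other neighbouring pair and in tandem, had a correlation of -0.457.

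All 3 subunits of RPA, which coats single-stranded DNA, changed in both strains. RFA1, the largest subunit (YAR007C), read -0.77 and -0.61 in 4P and -0.92 and -0.75 in WT at 0 min and 0.94 and 0.79 in 4P and 1.18 and 0.91 in WT at 15 min. At 45 min it was at -1.75 and -1.60 in 4P and -1.64 and -1.72 in WT, and the strains overlapped at all 3 times. RFA1 fell by 2.54 ± 0.16 in 4P and by 2.72 ± 0.16 in WT between 15 and 45 min (limma adjusted p = 9.7e-11 and 2.64e-11). The means of RFA2 and RFA3 stayed up through 30 min, at 0.85 and 0.92 in 4P and at 0.90 and 0.70 in WT. Between 15 and 30 min RFA2 fell in replicate 1, from 1.44 to 0.86 in 4P and from 1.05 to 0.92 in WT. In replicate 2 it rose, from 0.39 to 0.84 in 4P and from 0.44 to 0.89 in WT.

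The enzymes that join Okazaki fragments followed the same course. RAD27, the flap endonuclease, read 1.30 and 1.00 in 4P and 1.28 and 0.56 in WT at 15 min and -0.87 and -0.77 in 4P and -0.82 and -0.50 in WT at 45 min. CDC9, DNA ligase I, read 0.94 and 0.32 in 4P and 0.87 and 0.32 in WT at 15 min and -1.21 and -0.98 in 4P and -0.93 and -0.95 in WT at 45 min. For each gene the 45 min arrays lay below every 15 min array of the same strain. Between 45 and 75 min RAD27 rose by 1.90 ± 0.24 in 4P and 1.86 ± 0.24 in WT, and CDC9 by 1.88 ± 0.21 in 4P and 1.96 ± 0.21 in WT (limma adjusted p = 4.43e-06, 6.01e-06, 5.56e-07 and 2.83e-07).

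Among the 11 origin firing genes, CDC45 and SLD2 had the widest ranges. CDC45, a component of the active helicase (YLR103C), read 0.37 and 0.70 in 4P and 0.11 and 0.50 in WT at 0 min, and 1.67 and 2.24 in 4P and 2.21 and 1.87 in WT at 15 min. It was at -0.59 and -0.60 in 4P and -0.65 and -0.27 in WT at 45 min, and at 1.72 and 1.71 in 4P and 1.38 and 1.47 in WT at 75 min. The first peak overlapped between strains, and at 75 min both 4P arrays lay above both WT arrays. Its rise between 45 and 75 min was 2.31 ± 0.21 in 4P and 1.89 ± 0.21 in WT (limma adjusted p = 2.68e-08 and 5.35e-07). SLD2, which a cyclin-dependent kinase must phosphorylate for origins to fire, fell by 1.67 ± 0.22 in 4P and by 2.16 ± 0.22 in WT between 15 and 45 min (limma adjusted p = 5.14e-06 and 1.2e-07). SLD3, its partner in the same step, passed in neither strain.

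The GINS subunits PSF1 and PSF3 changed in both strains. PSF2 passed in 4P (limma adjusted p = 0.0322) and not in WT (0.102, or 0.0347 with the replicate block), and SLD5 passed in WT (9.23e-05) and not in 4P (0.0797). For neither did the course differ between strains by the test of strain and time (limma adjusted p = 1 for each). The kinase gene CDC7 changed in both strains (limma adjusted p = 0.00443 in 4P and 0.000101 in WT). DBF4, its regulatory subunit, whose protein is periodic, read 0.26 and 0.04 in 4P and 0.06 and -0.14 in WT at 15 min against -0.30 and -0.16 in 4P and -0.32 and -0.34 in WT at 0 min. The 15 min arrays lay above the 0 min arrays in each strain, by small steps: DBF4 rose by 0.38 ± 0.13 in 4P (limma adjusted p = 0.0473), and the difference in WT was 0.29 ± 0.13 (0.127). Over the 8 times DBF4 in WT had a limma adjusted p of 0.0536, and of 0.0349 with the replicate block. MCM10 in 4P passed the F test (limma adjusted p = 0.0456) with no contrast between the chosen times past the threshold, and that call was lost on leaving out any of 22 arrays.

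The fork protection genes changed together. CTF4, which ties polymerase alpha to the helicase, and TOF1, CSM3 and MRC1, which form the fork protection complex, all changed over time in both strains. TOF1 read 1.10 and 0.88 in 4P and 1.43 and 1.40 in WT at 15 min and -0.88 and -0.81 in 4P and -1.04 and -0.76 in WT at 45 min. CTF4 read 1.06 and 0.78 in 4P and 1.33 and 1.03 in WT at 15 min and -0.65 and -0.61 in 4P and -0.49 and -0.62 in WT at 45 min. In both genes the peak arrays were well separated from the trough arrays in each strain. TOF1 fell by 1.84 ± 0.19 in 4P and by 2.32 ± 0.19 in WT, and CTF4 by 1.55 ± 0.14 in 4P and by 1.73 ± 0.14 in WT (limma adjusted p = 1.03e-07, 3.16e-09, 2.28e-08 and 4.06e-09).

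Of the 6 origin recognition genes, ORC1 alone passed the F test in both strains, and it ran opposite to the fork genes. ORC1, an ATP-binding subunit (YML065W), was at -0.24 and -0.24 in 4P and -0.42 and -0.19 in WT at 15 min, and at 0.58 and 0.48 in 4P and 0.51 and 0.54 in WT at 45 min. The 45 min arrays lay above every 15 min array in both strains. ORC1 rose by 0.76 ± 0.16 in 4P and 0.83 ± 0.16 in WT between 15 and 45 min (limma adjusted p = 0.000886 and 0.00034). No other gene of the 46 rose in this interval in 4P (13.8% of all genes rose), and in WT RFC1, SLD3 and ORC5 did, 4 genes in all (19.2% of all genes rose). Between 45 and 75 min it fell by 0.81 ± 0.16 in WT (limma adjusted p = 0.000814; 7.09% of all genes fell), and the difference in 4P was -0.41 ± 0.16 (0.0641, and 0.0351 with the replicate block). ORC4 passed in 4P and ORC5 in WT (limma adjusted p = 0.013 and 0.0271).

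CDC21, thymidylate synthase, which makes the thymidine nucleotide for DNA, had a broad peak. It read 1.47 and 0.79 in 4P and 1.46 and 0.79 in WT at 15 min, 1.14 and 1.26 in 4P and 1.48 and 1.22 in WT at 30 min, and -0.98 and -0.91 in 4P and -0.35 and -0.90 in WT at 45 min. The 15 and 30 min arrays were all high, and the strains overlapped at both times. CDC21 fell by 2.07 ± 0.27 in 4P and by 1.75 ± 0.27 in WT between 15 and 45 min (limma adjusted p = 3.3e-06 and 2.94e-05). TOP2, topoisomerase II, which untangles sister chromatids, peaked later. At 30 min it read 1.55 and 1.58 in 4P and 1.30 and 1.33 in WT, and at 15 min 0.76 and 0.84 in 4P and 0.84 and 0.66 in WT. Its means were still at 1.05 in 4P and 1.08 in WT at 45 min, when most fork genes were at their lowest, and were highest again at 90 min, at 1.18 in 4P and 0.99 in WT.

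**Figure D2:**
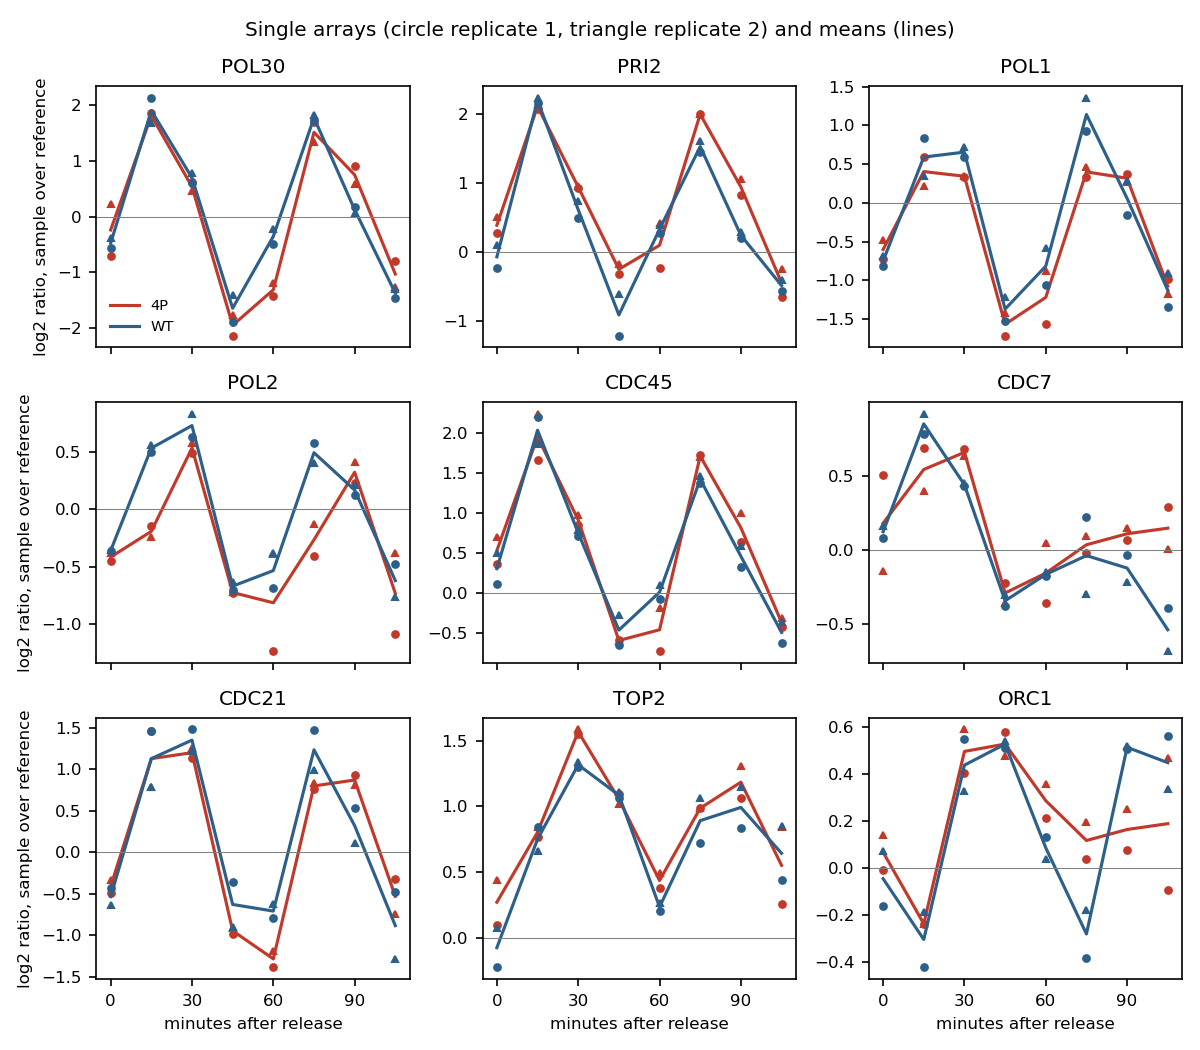
Log2 ratio of sample over reference on single arrays (circles replicate 1, triangles replicate 2) and their means (lines) against minutes after release, for 9 genes, 4P in red and WT in blue; each panel has its own vertical scale. POL30, PRI2 and CDC45 show 2 sharp peaks, the means of POL1 and CDC21 stay up through 30 min, CDC7 lies lower at 75 than at 15 min, TOP2 peaks at 30 and 90 min, and ORC1 is lowest at 15 min.

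The step between 15 and 30 min was chosen for comparison after the values had been seen. Subunits of single complexes differed in whether their change passed, which is no test of one subunit against another. Between these times 9 genes fell in 4P (7.69% of all genes) and 14 in WT (9.73%), and 3 rose in 4P (POL2, ORC1 and TOP2; 6% of all genes rose) and 2 in WT (ORC1 and TOP2; 10.6%). Within polymerase alpha, PRI2 fell by 1.17 ± 0.20 in 4P and by 1.58 ± 0.20 in WT (limma adjusted p = 0.000258 and 8.21e-06). POL12 fell by 1.10 ± 0.16 in 4P and by 1.43 ± 0.16 in WT (5.05e-05 and 2.24e-06). The difference for POL1 was -0.06 ± 0.23 in 4P and 0.06 ± 0.23 in WT (0.918 and 0.873). Within polymerase epsilon, DPB2 fell by 1.24 ± 0.22 in 4P and by 0.98 ± 0.22 in WT (limma adjusted p = 0.000486 and 0.00354). POL2 rose by 0.73 ± 0.21 in 4P (0.0251) and stood at 0.20 ± 0.21 in WT (0.544). Within RPA, RFA1 fell by 0.63 ± 0.16 in 4P and by 0.78 ± 0.16 in WT (limma adjusted p = 0.00865 and 0.00129), and the differences for RFA2 and RFA3 lay between -0.06 and 0.28. For RFA2, as for POL1, these are means of a fall in replicate 1 and a rise in replicate 2, in both strains.

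POL30 fell by 1.28 ± 0.24 in 4P and by 1.21 ± 0.24 in WT over the same 15 min, and CDC45 by 1.04 ± 0.21 in 4P and by 1.28 ± 0.21 in WT (limma adjusted p = 0.000789, 0.00123, 0.0013 and 0.000154). The differences for RAD27 and CDC9 were smaller, -0.53 ± 0.24 and -0.33 ± 0.21 in 4P and -0.19 ± 0.24 and -0.09 ± 0.21 in WT, and did not pass. DBF4 and CDC21 did not pass either (limma adjusted p = 0.796 and 0.914 in 4P, 0.913 and 0.584 in WT). ORC1 rose by 0.73 ± 0.16 in 4P and 0.74 ± 0.16 in WT, and TOP2 by 0.77 ± 0.18 in 4P and 0.57 ± 0.18 in WT (limma adjusted p = 0.0027, 0.00209, 0.00581 and 0.0308). A difference of one gene from another was not tested. The 4P minus WT difference in this step passed for none of the 46 genes by limma (1 gene at an unadjusted p below 0.05; 0.0161% of all genes passed).

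**Figure D3:**
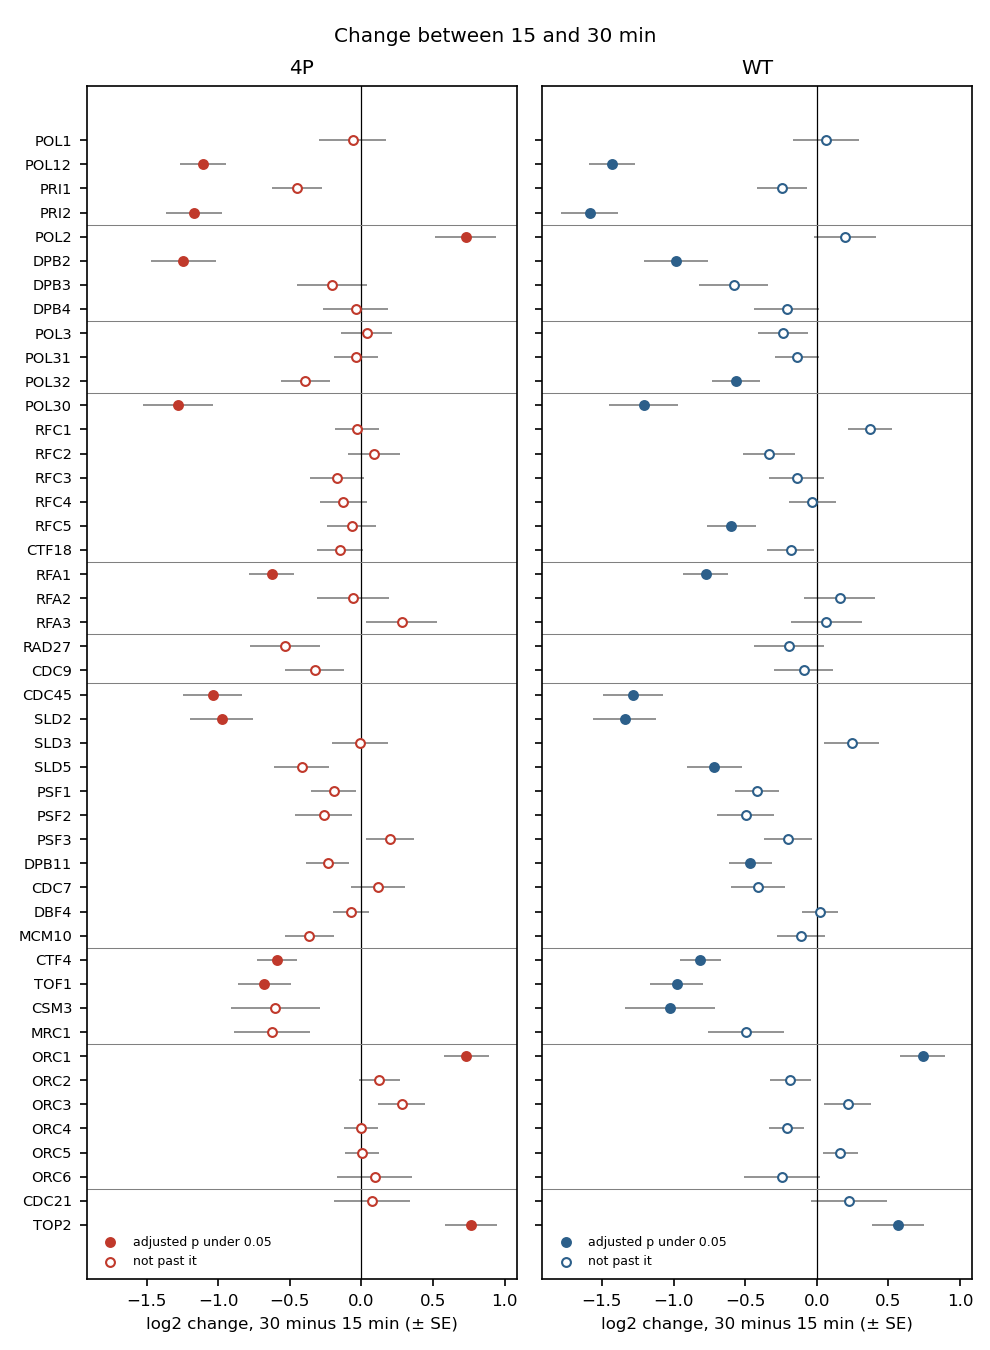
Log2 change between 15 and 30 min of each of the 46 genes (point, with the SE of the fit as a bar), 4P on the left and WT on the right, in the role order of the colour map; filled points passed limma's test at an adjusted p below 0.05. PRI2, POL12, DPB2, POL30, CDC45 and SLD2 lie near or beyond -1 in both strains, whereas POL1, RFA2, RFA3 and CDC21 lie near 0 and ORC1 and TOP2 to the right of it.

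The 2 waves differed in height for few genes. In a comparison of 75 with 15 min, also chosen after the values had been seen, 5 genes were lower at 75 min in WT (10.9%, against 8.41% of all genes). The differences were -0.88 ± 0.19 for CDC7, -0.87 ± 0.19 for SLD5, -0.68 ± 0.17 for RFC5, -0.67 ± 0.20 for PRI2 and -0.61 ± 0.21 for CDC45 (limma adjusted p = 0.00377, 0.00439, 0.0103, 0.0246 and 0.0454). RFC1 alone was higher, by 0.52 ± 0.15 (limma adjusted p = 0.0243), which is 2.17% of the 46 against 9.04% of all genes. CDC7 in WT read 0.78 and 0.92 at 15 min and 0.22 and -0.30 at 75 min, and SLD5 in WT 0.41 and 0.90 at 15 min and -0.10 and -0.34 at 75 min. The 75 min arrays of both genes lay below the 15 min arrays and above the 45 min arrays, which read -0.38 and -0.31 for CDC7 and -0.62 and -0.59 for SLD5. In 4P none of the 46 genes passed by limma (3 at an unadjusted p below 0.05, and 4.43% of all genes were lower and 3.42% higher). A difference between the strains in this change was not tested. CDC7 in 4P was at 0.69 and 0.39 at 15 min and -0.02 and 0.09 at 75 min. The WT count dropped to 2 without the WT array of replicate 1 at 75 min, to 1 without that of replicate 2 at 75 min and to 0 without that of replicate 2 at 15 min.

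Among 23 further replication genes outside the 46, which included the nuclease and helicase genes DNA2, RRM3 and PIF1, nucleotide synthesis genes and chromatin assembly genes, 15 changed over time in 4P (40.4% of all genes) and 13 in WT (35.6% of all genes). Between 0 and 15 min 6 rose in 4P and 8 in WT (8.7% and 9.15% of all genes), and 3 fell in 4P and 0 in WT by limma (5.77% and 8.07% of all genes). Between 45 and 75 min 11 rose in 4P and 13 in WT (14% and 8.86% of all genes), and 2 fell in 4P and 1 in WT (10.2% and 7.09% of all genes). Their median change over the first 15 min was 0.37 in 4P and 0.35 in WT.

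The comparison of 4P with WT asked whether the phosphomutant regulators altered these transcripts. Few differences passed: 2 of the 46 genes differed over the 8 times by limma's F test, a share of 4.35% against 5.04% of all genes. None passed the test of a difference that depends on time (0.0806% of all genes, smallest limma adjusted p = 0.414, for POL12). Single estimates reached -0.96, for POL30 at 60 min. With 2 arrays per group, a difference that did not pass is not shown to be absent. The genes that differed were PRI2 and RFC5 (limma adjusted p = 0.0399 and 0.0396). PRI2 was higher in 4P at 6 of 8 times, most at 90 min, when it read 0.83 and 1.06 in 4P and 0.21 and 0.29 in WT. RFC5 was higher in 4P at all times but 15 min, and at 30 min it read 0.89 and 0.79 in 4P and 0.26 and 0.45 in WT. The groups did not overlap at these times, and the differences were 0.70 ± 0.20 for PRI2 at 90 min and 0.49 ± 0.17 for RFC5 at 30 min (limma adjusted p = 0.265 and 0.304 at the single time).

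Both calls were lost with the slide as a block (limma adjusted p = 0.174 for PRI2 and 0.866 for RFC5), and each held for 12 of the 32 arrays left out in turn. Since only 1 slide held arrays of both genotypes, few strain differences of any gene can pass with the slide as a block. On the only slide that held both genotypes at 1 time and in the same dye, 45 min of replicate 1, PRI2 read -0.32 in 4P and -1.21 in WT, and the median difference over the 46 genes was -0.01. With the replicate number as a block, 6 genes differed over the 8 times (13%, against 16.2% of all genes). They were PRI2, RFC5, ORC6, POL12, POL2 and POL30, the last 4 with limma adjusted p of 0.00845, 0.031, 0.0291 and 0.0457. Without the block the other genes followed in every comparison, POL1, POL30, RFA1, CDC45, CDC9, RAD27, ORC1, DBF4, CDC21 and TOP2, did not pass, with limma adjusted p between 0.0996 for POL30 and 0.733 for TOP2.

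At single times, 1 of the 368 tests of a gene at a time passed. POL2 at 75 min read -0.41 and -0.12 in 4P and 0.58 and 0.41 in WT. Both 4P arrays lay below both WT arrays, as they did at 0, 15, 30 and 45 min. At 90 min they lay above both WT arrays. The difference at 75 min was -0.76 ± 0.21 (limma adjusted p = 0.0461, with 4.98% of all genes differing at 75 min). At 15 min it was -0.73 ± 0.21 (0.147; 0.113% of all genes). The call at 75 min was lost with the slide as a block, with median centring or with a background offset of 16 (limma adjusted p = 0.187, 0.135 and 0.0552), and held for 14 of the 32 arrays left out in turn. With the slide as a block only 0.0967% of all genes differed at 75 min. The POL2 difference was larger with the scanner's ratio, -1.34, and with the deposited table, -1.345 (limma adjusted p = 0.0111 and 0.00763). POL1 at 75 min read 0.34 and 0.47 in 4P and 0.93 and 1.36 in WT, a difference of -0.74 ± 0.23 (limma adjusted p = 0.0646). With the replicate number as a block, 7 tests passed. They were POL1, POL2, PRI2, DPB4 and RFC5 at 75 min (limma adjusted p = 0.0208, 0.0124, 0.0293, 0.0257 and 0.0436) and PRI2 at 45 and 90 min (0.0422 and 0.0396). The 5 genes at 75 min are 10.9% of the 46, against 16.1% of all genes in the same fit, and at 45 and 90 min 0.322% and 0.177% of all genes differed. At the other 7 times none of the 46 genes passed without the block by limma. At those times between 1 and 8 of the 46 had an unadjusted p below 0.05. Of all genes 0.113% passed at 0 min, 0.113% at 15 min, 0.0967% at 30 min, 0.161% at 45 min, 0.451% at 60 min, 0.0322% at 90 min and 0.371% at 105 min.

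**Figure D4:**
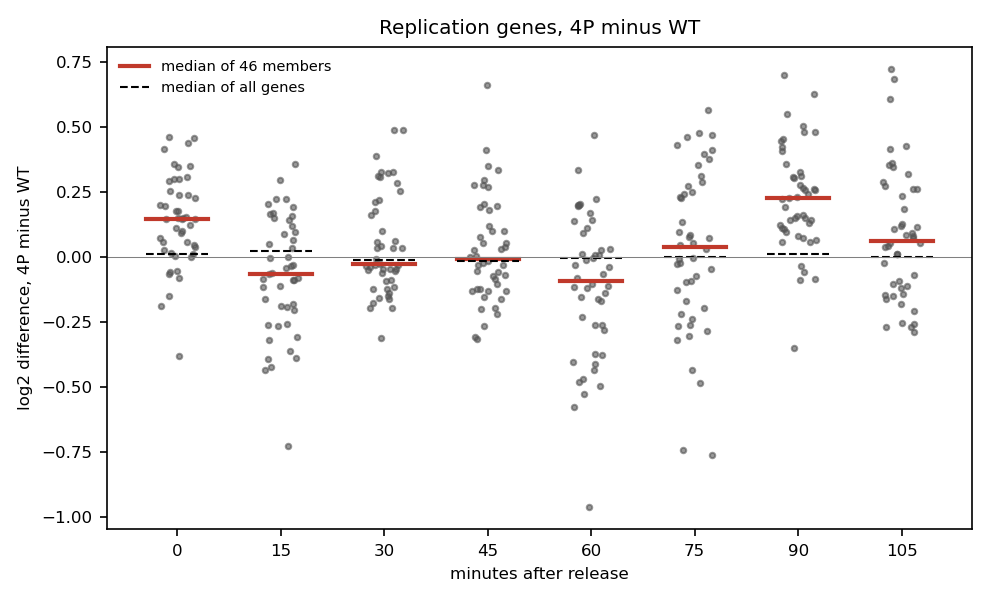
Log2 difference, 4P minus WT, of each of the 46 replication genes (points, spread sideways for legibility) against minutes after release, with the median of the 46 genes (red bar) and of all genes (dashed bar). The red bar is farthest from 0 at 90 min (0.23), and the low points are POL2 at 15 min, POL30 at 60 min, and POL1 and POL2 at 75 min.

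More of the 46 differences lay above 0 at 90 and 0 min than at any other time, and the fewest at 60 min. At 60 min the median difference of the 46 genes was -0.09, with 29 below 0, against 51.3% of all genes below 0. At 90 min the median was 0.23, with 41 above 0 (89.1%), against 52.3% of all genes above 0. At 90 min both 4P arrays lay above both WT arrays for 27 of the 46 genes, 58.7% against 19.4% of all genes, and below both for 2, 4.35% against 18%. At 60 min they lay below both for 11 genes, 23.9% against 18.5% of all genes, and above both for 8, 17.4% against 17.4%. The sign at 60 min rested on 1 array: the median was 0.0092 without the 4P array of replicate 1. At 0 min 38 of the 46 were above 0 (82.6%, against 51.8% of all genes), with a median of 0.15. At 105 min 29 were (63%, against 49.6% of all genes), with a median of 0.06. At 15 min 18 were (39.1%, against 53% of all genes), with a median of -0.06. The sign at 15 min depended on the scaling: with each array centred on its median in place of loess, the medians at 15 min were 0.15 over the 46 genes and 0.13 over all genes. With the slide as a block 34 of the 46 were above 0 at 90 min, 32 at 0 min and 19 at 105 min.

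The change between 60 and 90 min was chosen for comparison with an earlier result on MBF-type genes in view. Its counts are therefore a description and no independent support. The 60 and 90 min arrays of each course lay on 1 slide, so the change between these times within a course was taken within a slide. POL30 stood at -1.43 and -1.20 in 4P and -0.49 and -0.22 in WT at 60 min, and at 0.91 and 0.59 in 4P and 0.18 and 0.07 in WT at 90 min. Both 4P arrays were below both WT arrays at 60 min and above them at 90 min. Within the courses it climbed by 2.34 and 1.80 in 4P and by 0.67 and 0.29 in WT, and the 4P minus WT difference in this change was 1.59 ± 0.34 (limma adjusted p = 0.0538). POL12 stood at -0.98 and -0.86 in 4P and -0.33 and -0.45 in WT at 60 min, and at 0.07 and 0.21 in 4P and -0.35 and -0.38 in WT at 90 min. It moved by 1.05 and 1.06 in 4P and by -0.02 and 0.07 in WT, a difference of 1.03 ± 0.23 (limma adjusted p = 0.0538).

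No gene of the 46 passed in that comparison by limma (13 at an unadjusted p below 0.05; 0.0806% of all genes passed). With the replicate number as a block POL30, POL12 and PRI2 passed (limma adjusted p = 0.0277, 0.0277 and 0.0314; 0.58% of all genes). With the slide as a block the estimates were the same and POL12, POL30, RFA1 and CDC21 passed (0.0257, 0.0297, 0.0297 and 0.0297; 0.822% of all genes). The change was larger in both 4P courses than in both WT courses for 25 of the 46 genes, 54.3% against 20.4% of all genes. RFA1 moved by 1.46 and 1.34 in 4P and by 0.60 and 0.48 in WT, CDC45 by 1.36 and 1.19 in 4P and by 0.41 and 0.49 in WT, and CDC21 by 2.31 and 2.00 in 4P and by 1.33 and 0.73 in WT. All 3 had both 4P courses above both WT courses. TOP2 (0.68 and 0.81 in 4P, 0.63 and 0.88 in WT) and DBF4 (0.27 and 0.13 in 4P, 0.22 and 0.17 in WT) overlapped between the strains. ORC1 ran the other way, at -0.14 and -0.11 in 4P and 0.37 and 0.48 in WT. It was 1 of 4 genes, with ORC3, ORC6 and MCM10, whose change was smaller in both 4P courses than in both WT courses (8.7%, against 16.2% of all genes).

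**Figure D5:**
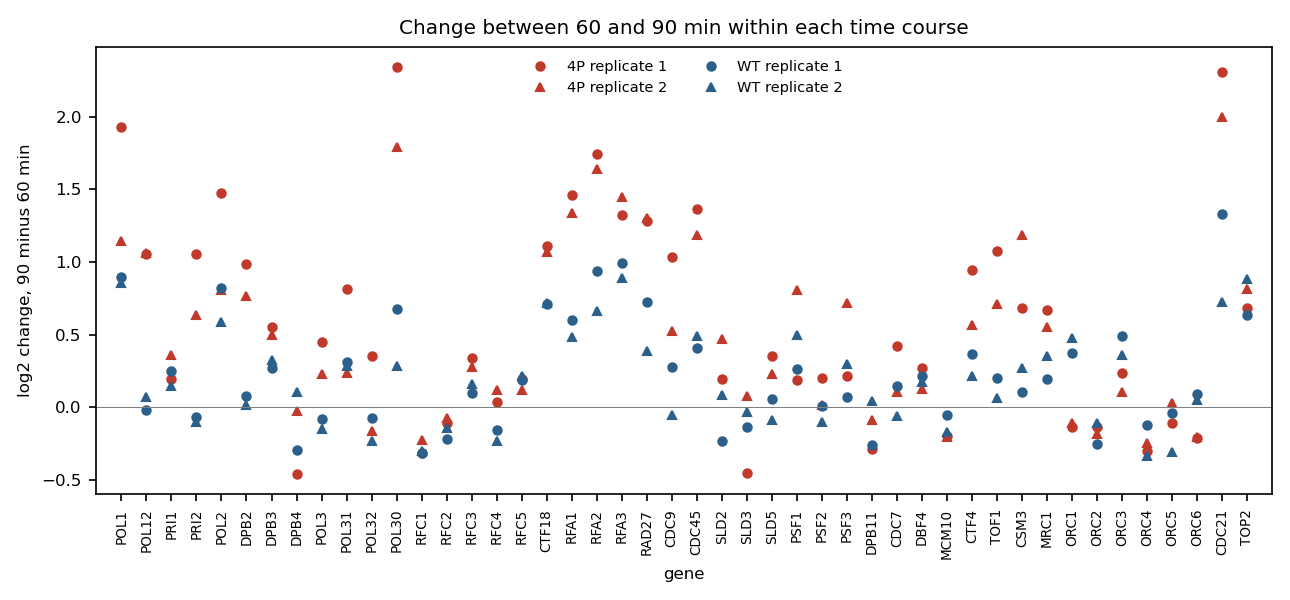
Log2 change between 60 and 90 min in each of the 4 time courses for each of the 46 genes, 4P in red and WT in blue, circles for replicate 1 and triangles for replicate 2. Both red points lie above both blue points for 25 genes, with the widest gap at POL30, and ORC1, ORC3, ORC6 and MCM10 show the reverse order.

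Stage markers, whose part in these differences was not tested, were measured at the same times. CLB6, a G1/S cyclin gene, averaged -0.48 in 4P and -0.10 in WT at 60 min and 1.44 in 4P and 0.68 in WT at 90 min. The early G1 gene EGT2 averaged -1.61 in 4P and -0.30 in WT at 60 min, and SIC1 0.33 in 4P and 1.15 in WT. At 75 min EGT2 averaged 0.17 in 4P and 0.07 in WT, and SIC1 1.23 in 4P and 0.93 in WT. The mitotic gene SWI5 averaged 1.26 in 4P and 0.91 in WT at 60 min and -0.48 in 4P and 0.38 in WT at 90 min. At 60 min the G1/S gene CLN2 averaged -1.41 in 4P and -1.20 in WT, and mitotic CLB2 1.38 in 4P and 1.20 in WT. At 90 min CLN2 averaged 0.87 in 4P and 0.57 in WT, and CLB2 -0.01 in 4P and 0.63 in WT. The histone gene HTA1 averaged -2.90 in 4P and -2.73 in WT at 60 min, and HTB1 -1.73 in 4P and -1.61 in WT. At 90 min HTA1 averaged 0.61 in 4P and 0.65 in WT, and HTB1 1.48 in 4P and 1.16 in WT. Whether the 2 strains were at the same stage at these times was not tested, and a difference in stage cannot be told apart here from a difference in transcript level at a given stage.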

How the data were processed

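RNA of 32 samples was hybridised on two-color arrays, 2 for each of 16 combinations of strain and time. The authors deposited scanner files of Agilent Feature Extraction (10.7.1.1, per the file headers) with spot intensity values in both channels and a log10 ratio per spot, and a table of log2 ratios per probe whose column medians lie between -0.04 and 0.02; its correlation with the turned scanner ratios was 0.961 to 0.999 and the labels do not state its normalization. Here the deposited median signal was background-corrected (normexp, offset 50), normalized within arrays by loess and turned to log2 of sample over reference by the dyes in the labels; spots of a probe, then probes of a gene, were averaged. Probes were kept where they were well above background on all arrays of at least 1 group, which left 6236 of 6256 probes and 6205 genes.

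No column of another sample was present (0). All arrays entered 1 limma fit (limma 3.58.1, R 4.3.3) of 16 group means, with Benjamini-Hochberg adjustment over all genes at 0.05. With 2 arrays per group the number of arrays limits the precision. A simulation with the same groups checked the calculation alone. In it 92% of planted changes over time of size 1 (log2) in WT were recovered, with 8 false calls among 5729 genes. Of planted differences of that size at 75 min 87% were recovered, with 14 false calls. On the real arrays replicate deviations correlated within a genotype, with a median of 0.313 in 4P and 0.429 in WT. The simulated shares are therefore no estimate of the power of the tests on the real arrays.

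Same-numbered replicates share a dye orientation, and whether they also share a run was not tested. The deviations of replicate 1 from the group means correlated between strains by 0.0495 to 0.379, below 0.1 at 45 min alone, and the series' design text says that the duplicate was run as a dye swap, so fits with the replicate as a block are given where they change the call of a gene described or a count by over 1.5 times.

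The members and lists were chosen with earlier results of these data known. Statistics are given for the 10 smallest adjusted p among genes that pass, and for POL1, POL30, RFA1, PRI2, CDC45, CDC9, RAD27, ORC1, DBF4, CDC21 and TOP2; values of other genes were chosen after they were seen. Alternatives were the scanner's ratio, median centring, the deposited table, another offset and filter, replicate, course and slide blocks, array weights, and leaving out arrays. Sequences, promoter motifs and coordinates were not analysed here.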

Additional observations from a re-analysis of the deposited data

How the results depend on the processing

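The number of arrays limits all of these values, and 12 of 18 summary values were kept under every alternative. Among them were the counts of genes that changed over time and the median at 90 min. A count was kept if it stayed within 1.5 times, and a count of 0 only if it stayed 0. A median was kept if it held its sign and moved by less than the SD of the medians of the 2 replicates. Under every one of 44 alternatives 26 of the 36 genes called in 4P and 29 of the 35 in WT passed; those that did not always pass were DBF4, MCM10, ORC1, ORC4, POL32, PRI1, PSF2, RFC2, RFC3 and RFC5 in 4P and DPB11, DPB3, ORC5, PSF3, RFC1 and RFC4 in WT. The 4P minus WT counts were less settled, and the cause was not tested. The 2 genes that differed at any time became 0 with the scanner's ratio or the slide as a block, 1 with median centring, the deposited table or the slide as a random block, 4 with array weights, 6 with the replicate block, 8 with the block nested in genotype, and 0 to 5 with single arrays left out, 20 of which moved the count. The 1 test at a single time became 0 with median centring, an offset of 16 or the slide as a block, 2 with the slide as a random block, 6 with the scanner's ratio, 7 with the deposited table, array weights or the replicate block, 9 with the nested block, and 0 to 6 with single arrays left out, 24 of which moved it. The 0 genes whose change between 60 and 90 min differed became 1 with the scanner's ratio or the deposited table, 3 with the replicate block, the nested block, the slide as a random block or array weights, 4 with the slide as a block, and 0 to 2 with single arrays left out (2 without either WT array at 15 min, 1 without either 4P array at 0 min). The 5 genes lower at 75 than at 15 min in WT became 2 with median centring, 3 with array weights, 8 with the nested block or the slide as a block, and 0 to 6 with single arrays left out; in 4P the 0 became 0 to 2, with 2 without the array of replicate 2 at 15 min. The median difference at 60 min, -0.09, lay between -0.18 and 0.01 with single arrays left out and reversed to 0.0092 without the 4P array of replicate 1 at that time. The replicate block changed no other count by over 1.5 times.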
